A study of Mus musculus with 6 samples.

Results

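The tumour necrosis factor (TNF) ligands and their receptors are a family of cell surface and secreted proteins through which immune cells tell each other to live, die, divide or switch on inflammatory genes. The ligands act as trimers and bind receptors that either recruit TRAF adaptor proteins, which lead to the transcription factor NF-kB, or carry a death domain that leads to caspases. In the B lineage the family is best known for the receptors of the survival factor BAFF, for the lymphotoxins that shape lymphoid organs, and for the costimulatory pairs by which lymphocytes act on each other.

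The genes described are those whose symbol starts with Tnfsf (ligands) or Tnfrsf (receptors), with the RefSeq transcripts of a symbol summed, and with at least 1 RPKM in at least 2 of the 6 libraries. RPKM scales reads to transcript length and to the total of the library, a level that can be compared between genes of different length. Of 31 such symbols among 22099 genes, 21 reached this level, 6 of 11 ligands and 15 of 20 receptors. Related genes that carry other symbols, such as Tnf, Lta and Ltb, are given as a separate list.

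The libraries are polyadenylated RNA from C57BL/6 mouse cultures at day 14. All 6 came from whole bone marrow transduced with a retrovirus that carries BCR-ABL p185, the fusion kinase of an acute B cell leukaemia, and a yellow fluorescent protein marker. By the labels these are transformed pro-B leukaemia cells, and no sort for the fluorescent marker is named. The marrow was homozygous for a mutation of zinc finger 4 of Ikaros (Ikaros_ZnF4-/-, called the ZnF4 mutant here), homozygous for a mutation of zinc finger 1 (Ikaros_ZnF1-/-, the ZnF1 mutant), or wt, with 2 biological replicates in each group. Ikaros, encoded by Ikzf1, is a DNA-binding zinc finger protein of lymphoid cells and a tumour suppressor in this leukaemia.

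Ikzf1 RNA was present in every library, at 188.2 and 170.2 RPKM in the ZnF4 mutant, 101.5 and 116.7 in the ZnF1 mutant, against 89.2 and 85.9 in wt. A level summed over the gene does not show whether a single finger exon is missing. The 9 B lineage markers used here, among them Cd79a and Pax5, summed to 2096.3 to 3177.5 RPKM per library, and all 9 were above 0 in each. Transcripts of other marrow cells were present too. The 10 monocyte and macrophage markers, each above 0 in every library, summed to 334.5 and 371.7 RPKM in the ZnF4 mutant, 961.9 and 1032.8 in the ZnF1 mutant, against 321.2 and 386.9 in wt. The 9 stromal and endothelial markers summed to 74.6 and 77.7 in the ZnF4 mutant, 264.1 and 151.2 in the ZnF1 mutant, against 70.8 and 79.7 in wt. Of these the endothelial gene Cdh5 was at 2.1 and 1.3 in the ZnF4 mutant, 0.1 and 0.1 in the ZnF1 mutant and 0 in both wt libraries, while the endothelial and leukocyte gene Pecam1 was at 9.9 and 9.4 in the ZnF4 mutant, 25.8 and 22.4 in the ZnF1 mutant, against 18.6 and 18.3 in wt. The 8 granulocyte markers stood apart in ZnF1 mutant replicate 2 (1623.6 RPKM) and wt replicate 1 (527.8), against 0.5 to 52.9 in the other libraries. Of 11 T and NK cell markers, Cd3e, Cd3g, Cd8a and Cd8b1 were listed at 0 in all 6 libraries, and Lck, which these cultures expressed at 15 to 53.4 RPKM, made up most of the sum of 19.5 to 55.7.

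Among the 21 members, the most abundant were receptors. The TNF receptor Tnfrsf1b averaged 24.2 RPKM over the 6 libraries, the death receptor family member Tnfrsf21 (DR6) 22, the BAFF receptor Tnfrsf13c 19.5 and Tnfrsf14, the receptor of the ligand LIGHT, 16.3. These 4 were at 10 RPKM or more in every library. The most abundant ligands were Tnfsf11 (RANKL), known for driving osteoclast formation, at a mean of 15 RPKM, and Tnfsf8, the ligand of CD30, at 12.4. The lowest of the 21 was Tnfrsf8 (CD30), which met the level only through the ZnF4 mutant libraries, at 1.4 and 1.1 RPKM. Just outside were Tnfrsf11b, Tnfsf14 and Tnfrsf23, each at 1 RPKM or more in a single library, with 1.9, 1.6 and 1.6. The other 7 symbols stayed under 1 RPKM throughout, and Tnfsf15, Tnfsf18 and Tnfrsf25 were listed at 0 in all libraries.

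**Figure D1:**
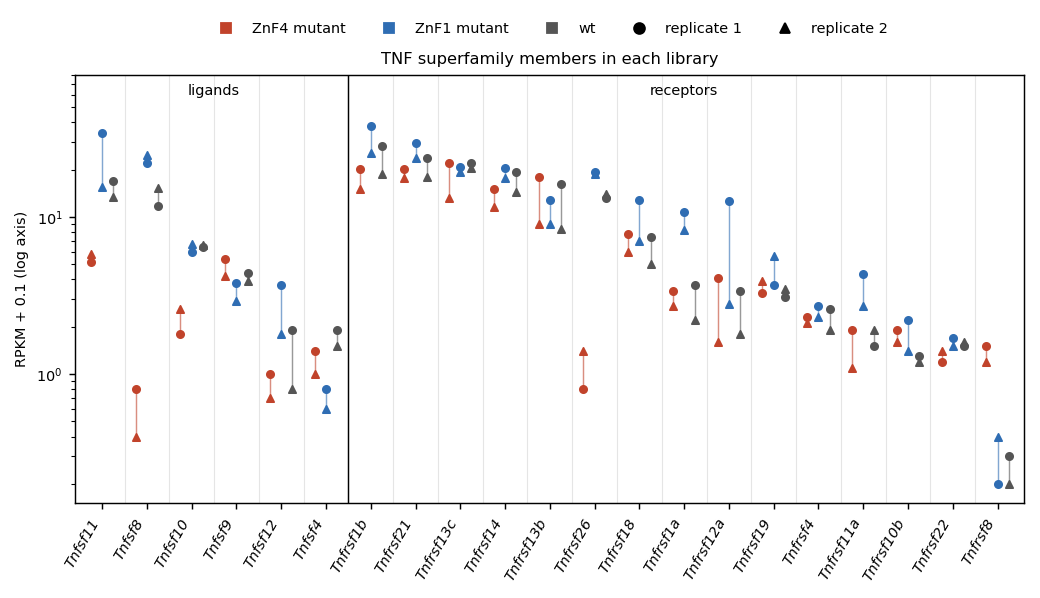
RPKM plus 0.1 (log axis) of the 21 members in each library, ligands left and receptors right, each sorted by mean level, with circles for replicate 1 and triangles for replicate 2 and a line joining the 2 libraries of a group. Tnfsf8 and Tnfrsf26 stand far below the other groups in the ZnF4 mutant, at 0.3 to 1.3 RPKM against 11.6 to 24.5 elsewhere.

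The first question is what the mutation of zinc finger 4 changed. In the ZnF4 mutant 3 members fell against wt and none rose: the CD30 ligand Tnfsf8, the receptor Tnfrsf26 and the TRAIL ligand Tnfsf10. Tnfsf8 and Tnfrsf26 were at 1.3 RPKM or less in the ZnF4 mutant and at 11.6 RPKM or more in every other library. The test was limma on log2(RPKM + 1) over 11345 genes, with Benjamini-Hochberg adjusted p under 0.05 as the threshold, and it called 2.72% of all genes in this comparison (1.3% lower). With the replicate number as a block in the fit, 5 members were lower and 1 was higher, beside 15.9% of all genes called (7.92% lower, 8.02% higher). The median log2 difference of the 21 members was −0.13, against 0.04 over all genes tested.

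Tnfsf8 stood at 0.7 and 0.3 RPKM in the ZnF4 mutant, 21.8 and 24.5 in the ZnF1 mutant, against 11.6 and 15.2 in wt. No group overlapped another. The fall against wt was −3.26 on the log2(RPKM + 1) scale (SE 0.22, limma adjusted p = 0.0067), and against the ZnF1 mutant −4.02 (SE 0.22, adjusted p = 0.0075). On this scale the change of genes with low values is understated. Tnfsf8 binds CD30, a receptor of activated lymphocytes that signals through TRAF proteins.

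The gene of that receptor moved the other way. Tnfrsf8 stood at 1.4 and 1.1 RPKM in the ZnF4 mutant, 0.1 and 0.3 in the ZnF1 mutant, against 0.2 and 0.1 in wt. Both ZnF4 libraries were above the other 4. It rose against the ZnF1 mutant by 0.91 (SE 0.16, limma adjusted p = 0.045), while the difference of 0.97 against wt had an adjusted p of 0.056, or 0.019 with the replicate block. The call between the mutants ended when any 1 library was left out (0.0823 to 0.217, values 0.79 to 1.03), and the value was 2.25 with a pseudocount of 0.1 (adjusted p = 0.0737) and 0.27 with 5 (0.0527). Since Tnfrsf8 entered the test through the group where it was high, it had to differ to be described at all, and its levels are low.

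Tnfrsf26, a mouse receptor related to the TRAIL receptors, stood at 0.7 and 1.3 RPKM in the ZnF4 mutant, 19.3 and 18.6 in the ZnF1 mutant, against 13.1 and 13.8 in wt. Its replicates lay close together, and the 3 groups did not overlap. The fall was −2.87 against wt (SE 0.19, limma adjusted p = 0.0067) and −3.33 against the ZnF1 mutant (SE 0.19, adjusted p = 0.0075). The limma adjusted p for Tnfrsf26 against wt was 0.0554 to 0.064 when any 1 of the 4 libraries compared was left out, with values of −3.09 to −2.65 over all such fits. For Tnfsf8 against wt it was 0.0572 to 0.064 without either ZnF4 mutant library or without wt replicate 2, with values of −3.46 to −3.07. Between the mutants the calls were lost likewise, for Tnfsf8 without any 1 of the 4 libraries (adjusted p = 0.0566 to 0.0831) and for Tnfrsf26 without ZnF4 mutant replicate 1 or either ZnF1 mutant library (0.0575 to 0.0859). Such fits have a lone library in a group, which is taken to vary like the other groups.

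Tnfsf10 (TRAIL), which triggers apoptosis through death receptors, stood at 1.7 and 2.5 RPKM in the ZnF4 mutant, 5.9 and 6.6 in the ZnF1 mutant, against 6.3 and 6.5 in wt. Both ZnF4 mutant libraries were lower than the other 4, which lay between 5.9 and 6.6. Its fall was −1.27 against wt (SE 0.19, limma adjusted p = 0.037) and −1.24 against the ZnF1 mutant (adjusted p = 0.03). The call against wt ended when any 1 library was left out (adjusted p = 0.0947 to 0.227, values −1.45 to −1.08), and so did that between the mutants (0.0614 to 0.171, values −1.42 to −1.05). Of the other TRAIL receptor genes, 2 were tested and had no call in any comparison: Tnfrsf10b, the mouse death receptor of TRAIL, ranged from 1.1 to 2.1 RPKM over the 6 libraries, and the decoy receptor Tnfrsf22 from 1.1 to 1.6.

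Tnfsf11 stood at 5.1 and 5.7 RPKM in the ZnF4 mutant, 34 and 15.4 in the ZnF1 mutant, against 16.7 and 13.2 in wt. The ZnF4 libraries were below all others, and ZnF1 mutant replicate 1 was far above its partner. The difference of −1.31 from wt (SE 0.38) passed only with the replicate block (limma adjusted p = 0.215, or 0.04 with the block). That of −1.91 between the mutants had an adjusted p of 0.056, or 0.0089 with the block, which was not the only alternative setting in which it passed. Its receptor Tnfrsf11a (RANK) stood at 1.8 and 1 RPKM in the ZnF4 mutant, 4.2 and 2.6 in the ZnF1 mutant, against 1.4 and 1.8 in wt, so the ZnF4 mutant overlapped wt. The decoy receptor Tnfrsf11b, under the level except in ZnF1 mutant replicate 1, was listed at 0.2 to 1.9 RPKM.

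Summed macrophage markers in the ZnF4 mutant lay within the range of wt (334.5 and 371.7, against 321.2 and 386.9 RPKM). Stromal sums in the ZnF4 mutant likewise lay within the range of wt, but genes of that list moved in opposite directions. Fn1 was at 35.3 and 48.2 RPKM in the ZnF4 mutant, against 16.2 and 30.4 in wt. Col1a1 was at 4 and 2, against 5.5 and 4.2, and Col1a2 at 3.8 and 3.2, against 5.6 and 7. Cdh5 was higher and Pecam1 lower in the ZnF4 mutant, as given above. Of the 11 T and NK cell markers, Cd3e, Cd3g, Cd8a and Cd8b1 were at 0 in all groups. Lck was lower in the ZnF4 mutant, at 18.1 and 15 RPKM, 53.4 and 26.6 in the ZnF1 mutant, against 46.2 and 27.4 in wt. The rest of the list did not move alike. Gzmb was at 0.9 and 5.5 in the ZnF4 mutant, 0 and 0.5 in the ZnF1 mutant, against 3.2 and 0 in wt. Prf1 was at 0.1 and 1 in the ZnF4 mutant, against 0.1 to 0.3 elsewhere. Cd4 was at 0 in the ZnF4 mutant, 1.7 and 2 in the ZnF1 mutant, against 0.1 and 0.1 in wt. Cd3d, Nkg7 and Klrb1c were at 0 to 0.5 in all libraries. The 5 plasma cell markers summed to 70.6 and 64.3 RPKM in the ZnF4 mutant, 142.5 and 95.7 in the ZnF1 mutant, against 164.5 and 133 in wt. The sum was thus lower in the ZnF4 mutant than in the other groups. Most of that difference was Xbp1, at 36.4 and 33.5 in the ZnF4 mutant, 107.2 and 60 in the ZnF1 mutant, against 134.2 and 100.9 in wt. Irf4 (27.4 and 24.4 in the ZnF4 mutant, 24.3 and 28.3 in wt) and Sdc1 (5.8 and 3.9, against 5.1 and 2.9) overlapped wt. Prdm1 was at 0.1 to 0.7 in all libraries. Igj went the other way from the sum, at 0.9 and 2.3 in the ZnF4 mutant, against 0.7 and 0.6 in wt. It was at 1 and 0.6 in the ZnF1 mutant. The part of Lck, the stromal and endothelial genes and the plasma cell markers in the falls was not tested. Granulocyte markers were at 6.1 and 52.9 RPKM in the ZnF4 mutant, against 527.8 and 0.5 in wt. Without wt replicate 1 the differences were −3.45 for Tnfsf8, −2.9 for Tnfrsf26 and −1.29 for Tnfsf10. Granulocyte sums still differed between the groups in that fit, and their part in the falls was not tested. In bulk RNA, fewer cells of a type and less RNA per cell cannot be told apart.

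Promoters are printed for the members called in the ZnF4 mutant against wt in either fit, or against the ZnF1 mutant without the block, that have an entry in the RefSeq-based table (GRCm38.p6), from 250 bases before to 50 after the start of the gene. All but Tnfrsf8 were lower in the ZnF4 mutant in the comparison that chose them. Tnfrsf26 has no entry. Each is written 5′ to 3′ on the strand of the gene, with capitals for the core motif of Ikaros, GGGAA, or its reverse complement TTCCC.
Tnfsf8, chr4:63861235-63861534, minus strand: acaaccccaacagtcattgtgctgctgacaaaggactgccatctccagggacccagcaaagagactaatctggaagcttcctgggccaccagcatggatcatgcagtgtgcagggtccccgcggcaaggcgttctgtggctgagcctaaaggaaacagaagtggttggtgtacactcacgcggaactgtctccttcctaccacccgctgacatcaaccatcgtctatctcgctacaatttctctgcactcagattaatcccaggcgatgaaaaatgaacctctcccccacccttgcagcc
Tnfsf10, chr3:27316827-27317126, plus strand: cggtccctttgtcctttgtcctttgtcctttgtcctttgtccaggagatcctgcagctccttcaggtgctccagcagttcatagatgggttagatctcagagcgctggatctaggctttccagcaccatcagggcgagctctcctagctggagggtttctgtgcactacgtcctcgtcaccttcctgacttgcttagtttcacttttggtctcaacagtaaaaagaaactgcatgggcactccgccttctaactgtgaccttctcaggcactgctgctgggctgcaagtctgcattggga
Tnfsf11, chr14:78307994-78308293, minus strand: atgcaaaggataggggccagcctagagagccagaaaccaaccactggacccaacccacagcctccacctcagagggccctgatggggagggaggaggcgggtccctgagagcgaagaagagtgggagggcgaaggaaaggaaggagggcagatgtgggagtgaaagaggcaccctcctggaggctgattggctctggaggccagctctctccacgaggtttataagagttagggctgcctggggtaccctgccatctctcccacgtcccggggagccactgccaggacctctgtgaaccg
Tnfrsf8, chr4:145315115-145315414, minus strand: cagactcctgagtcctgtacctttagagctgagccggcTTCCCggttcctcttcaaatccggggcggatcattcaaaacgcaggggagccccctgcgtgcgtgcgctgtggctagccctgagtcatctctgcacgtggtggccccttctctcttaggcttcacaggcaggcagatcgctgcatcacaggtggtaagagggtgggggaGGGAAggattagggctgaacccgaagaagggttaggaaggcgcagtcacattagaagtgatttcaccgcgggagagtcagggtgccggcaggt
Tnfrsf1a, chr6:125349473-125349772, plus strand: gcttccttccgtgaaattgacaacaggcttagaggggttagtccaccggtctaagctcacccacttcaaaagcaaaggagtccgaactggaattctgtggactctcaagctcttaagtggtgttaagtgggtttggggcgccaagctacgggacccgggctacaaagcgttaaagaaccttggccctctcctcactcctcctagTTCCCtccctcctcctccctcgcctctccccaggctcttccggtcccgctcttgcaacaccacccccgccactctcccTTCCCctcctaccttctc
Tnfrsf1b, chr4:145246821-145247120, minus strand: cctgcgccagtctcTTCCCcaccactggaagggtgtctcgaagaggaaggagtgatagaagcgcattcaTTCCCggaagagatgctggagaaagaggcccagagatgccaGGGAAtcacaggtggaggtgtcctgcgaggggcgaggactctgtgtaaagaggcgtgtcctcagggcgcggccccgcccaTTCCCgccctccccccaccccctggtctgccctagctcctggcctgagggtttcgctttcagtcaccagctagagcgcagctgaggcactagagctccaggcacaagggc

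The motif GGGAA, on either strand, had 2 matches in the Tnfrsf8 window, 2 in that of Tnfrsf1a and 4 in that of Tnfrsf1b. The windows of Tnfsf8, Tnfsf10 and Tnfsf11 had 0. Of the genes with matches, Tnfrsf1a was lower against the ZnF1 mutant but not against wt (difference 0.06). Tnfrsf1b overlapped wt, with a difference of −0.39 called with the block. It is common: 62.7% of 32851 promoter windows of this length hold it, as did those of 9 of the 15 described members with an entry. The longer form TGGGAA, which contains the shorter motif, was in 25.6% of windows and in that of 1 described member, Tnfrsf14. A match is a string of letters and not a measured site, and no match says only that these letters are not in this window.

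Several members are neighbours in the genome, by the gene order of the RefSeq annotation of GRCm38.p6, used for order alone because the deposited values were made on mm9. Tnfrsf26, Tnfrsf22 and Tnfrsf23 are consecutive on chromosome 7, between Cars and Osbpl5 and on the stretch that starts with H19 and Igf2. Each had a lower mean in the ZnF4 mutant than in the other groups. Tnfrsf26 was called, Tnfrsf22 was tested without a call, and Tnfrsf23 missed the level and was not tested. Tnfrsf22 and Tnfrsf23 were too low in all groups to tell how alike the neighbours moved. Tnfrsf26 fell in the ZnF4 mutant, Tnfrsf22 stood at 1.1 and 1.3 RPKM in the ZnF4 mutant, 1.6 and 1.4 in the ZnF1 mutant, against 1.4 and 1.5 in wt, and Tnfrsf23 at 0.3 and 0.2 in the ZnF4 mutant, 1.6 and 0.6 in the ZnF1 mutant, against 0.4 and 0.3 in wt. On the far side, Osbpl5, a lipid transfer protein gene, was at 1.3 and 1.5 RPKM in the ZnF4 mutant, 6.4 and 4.2 in the ZnF1 mutant, against 5.2 and 4.2 in wt. It fell against the ZnF1 mutant by −1.37 (limma adjusted p = 0.035), and its difference of −1.24 from wt had an adjusted p of 0.066, or 0.0098 with the replicate block. On the near side, Cars, a transfer RNA synthetase gene, was at 31.5 and 31.1 in the ZnF4 mutant, 24.3 and 26.9 in the ZnF1 mutant, against 28.5 and 25.5 in wt, with no call. Farther along, the imprinted genes H19 and Igf2 rose in the ZnF4 mutant, by 7.28 and 6.94 against wt (limma adjusted p = 0.02 and 0.0094). The sources used here do not give how reads shared by similar paralogs such as Tnfrsf22 and Tnfrsf23 were counted, so the levels of this cluster carry that uncertainty.

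**Figure D2:**
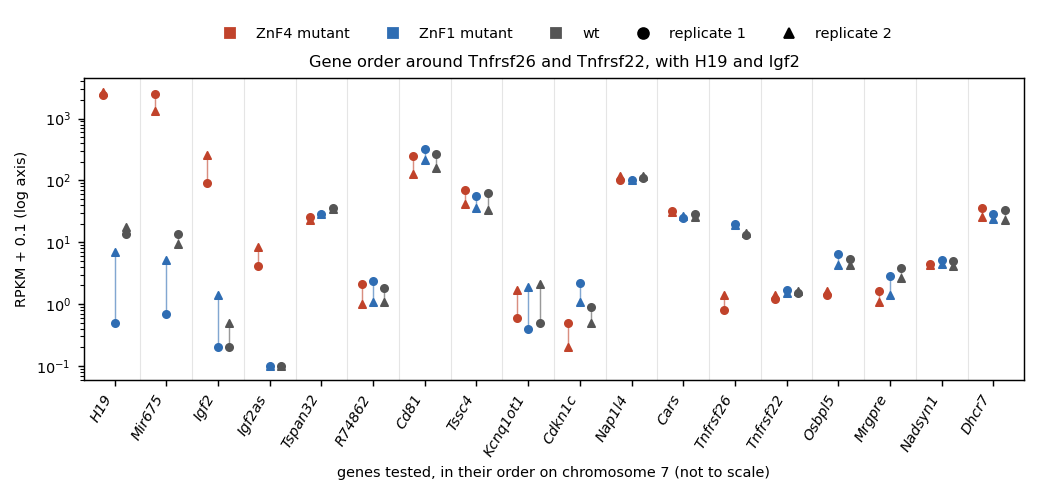
RPKM plus 0.1 (log axis) in each library for the 18 genes tested from H19 to Dhcr7, in their order on chromosome 7 and not to scale, with the 3 groups side by side and circles and triangles for replicates 1 and 2. H19 and Igf2 are high and Tnfrsf26 and Osbpl5 low in the ZnF4 mutant, and Cars and Tnfrsf22 lie close together in all groups.

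Tnfrsf8 lies next to Tnfrsf1b on chromosome 4. Their differences between the ZnF4 mutant and wt had opposite signs (0.97 for Tnfrsf8 and −0.39 for Tnfrsf1b), and neither passed in the fit of group means alone. Tnfsf8 lies next to Tnfsf15, which was listed at 0 in all libraries. Tnfrsf4 and Tnfrsf18 are adjacent and had no call without the block in any comparison, and Tnfsf4 lies next to Tnfsf18, which was listed at 0. Tnfsf12 adjoins Tnfsf13, which was listed at no more than 0.2 RPKM, and Tnfsfm13, a transcript annotated over the pair, lies there too, so reads in that overlap cannot be told apart.

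The receptors of BAFF and APRIL, which keep B cells alive, had no call in any comparison. Tnfrsf13c (BAFF receptor) stood at 21.9 and 13 RPKM in the ZnF4 mutant, 20.8 and 19.2 in the ZnF1 mutant, against 21.8 and 20.3 in wt. Tnfrsf13b (TACI) stood at 17.9 and 8.9 in the ZnF4 mutant, 12.7 and 8.9 in the ZnF1 mutant, against 16.2 and 8.3 in wt, and replicate 1 was the higher library in each group. The third receptor, Tnfrsf17 (BCMA), a marker of plasma cells, was at 0 to 0.1 RPKM. The ligands Tnfsf13b (BAFF) and Tnfsf13 (APRIL) were at 0 to 0.1 and 0 to 0.2 RPKM.

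The second question is what the mutation of zinc finger 1 changed. No member passed against wt (0 of 21, with 0% of all genes called), and 4 had an unadjusted limma p under 0.05, as did 1281 of all 11345 genes. With the replicate block 3 members were higher and 1 lower, beside 13.2% of all genes called (10.4% higher, 2.88% lower). The median log2 difference of the 21 was 0.34, against −0.01 over all genes.

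The largest difference among the 4 was that of Tnfrsf1a, the death domain receptor of TNF. It stood at 3.3 and 2.6 RPKM in the ZnF4 mutant, 10.7 and 8.2 in the ZnF1 mutant, against 3.6 and 2.1 in wt. Both ZnF1 libraries lay above the other 4, while the ZnF4 mutant and wt overlapped. The difference of the ZnF1 mutant from wt was 1.46 (SE 0.26, limma adjusted p = 0.102, or 0.0053 with the block). The ZnF4 mutant fell against the ZnF1 mutant by −1.4 (SE 0.26, adjusted p = 0.047), a call that ended when any 1 library was left out (0.0561 to 0.248, values −1.57 to −1.23).

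Tnfrsf1b, the TRAF-coupled receptor of TNF, stood at 20.1 and 14.9 RPKM in the ZnF4 mutant, 37.6 and 25.5 in the ZnF1 mutant, against 28.2 and 18.6 in wt. Replicate 1 was higher in each group, so that both mutants overlapped wt although they moved apart within each replicate number. The difference from wt was −0.39 in the ZnF4 mutant (limma adjusted p = 0.923, or 0.032 with the block) and 0.42 in the ZnF1 mutant (0.931 without and 0.031 with the block). The other 2 called with the block were the GITR receptor Tnfrsf18, higher by 0.58 (adjusted p = 0.77, or 0.049 with the block), and the OX40 ligand Tnfsf4, lower by −0.7 (adjusted p = 0.19, or 0.022 with the block). Both belong to costimulatory pairs. Tnfrsf18 stood at 7.7 and 5.9 RPKM in the ZnF4 mutant, 12.8 and 6.9 in the ZnF1 mutant, against 7.3 and 4.9 in wt. Tnfsf4 stood at 1.3 and 0.9 in the ZnF4 mutant, 0.7 and 0.5 in the ZnF1 mutant, against 1.8 and 1.4 in wt, with both ZnF1 libraries below the rest.

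The TWEAK pair, a ligand made by macrophages and a receptor of stromal and injured tissue, was higher in replicate 1 than in replicate 2 of every group. Tnfrsf12a stood at 4 and 1.5 RPKM in the ZnF4 mutant, 12.5 and 2.7 in the ZnF1 mutant, against 3.3 and 1.7 in wt. Its ligand Tnfsf12 stood at 0.9 and 0.6 in the ZnF4 mutant, 3.6 and 1.7 in the ZnF1 mutant, against 1.8 and 0.7 in wt. ZnF1 mutant replicate 1, the library with the highest stromal markers (264.1 RPKM), was the highest for both. Neither passed against wt (adjusted p = 0.871 for Tnfrsf12a and 0.67 for Tnfsf12). The higher values of Tnfrsf1a, Tnfrsf1b, Tnfrsf12a and Tnfsf12 in the ZnF1 mutant stood beside macrophage sums of 961.9 and 1032.8 RPKM there, against 321.2 and 386.9 in wt, and the part of these transcripts in the differences was not tested.

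**Figure D3:**
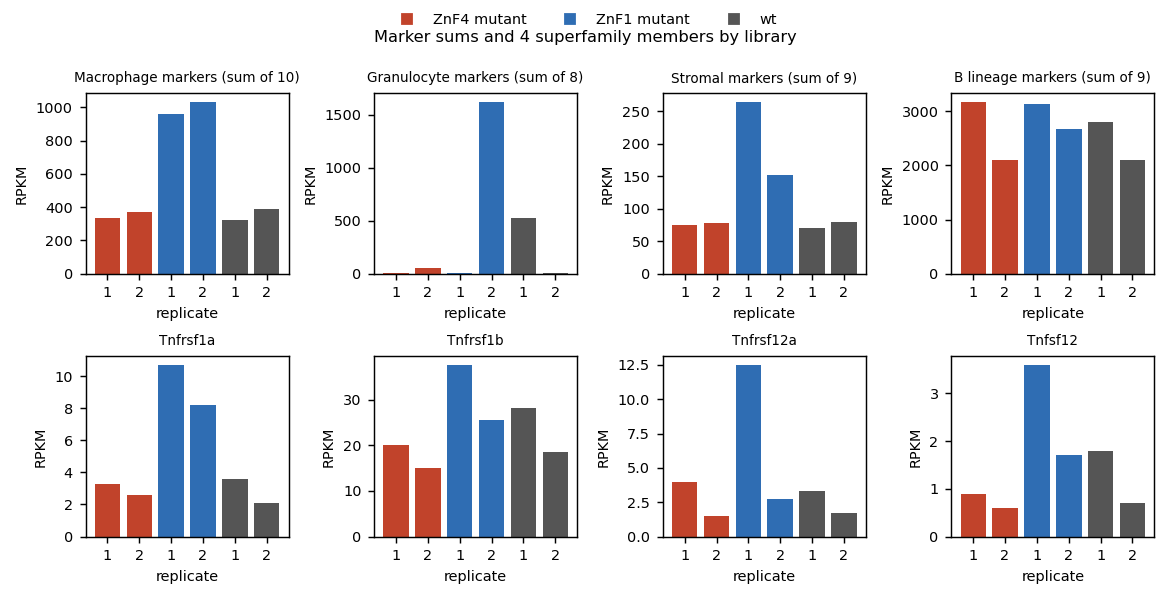
RPKM by library (bars from 0, ZnF4 mutant, ZnF1 mutant, wt, replicates 1 and 2) of 4 summed marker lists above and 4 members below. Macrophage sums and Tnfrsf1a are highest in both ZnF1 mutant libraries, and stromal sums, Tnfrsf12a and Tnfsf12 are highest in ZnF1 mutant replicate 1.

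The third question is how the finger mutants differ from each other. Against the ZnF1 mutant, 4 members fell in the ZnF4 mutant (Tnfsf8, Tnfrsf26, Tnfsf10 and Tnfrsf1a) and 1 rose (Tnfrsf8), beside 5.37% of all genes called. Tnfrsf8 met the level only through the ZnF4 mutant and so had to differ. With the replicate block 11 were lower and 2 higher, beside 35.1% of all genes called (19.2% lower, 15.9% higher). The median log2 difference of the 21 was −0.46, against 0.04 over all genes. This comparison shares its libraries with the other two comparisons. The members added by the block were Tnfsf11, Tnfrsf1b, Tnfsf12, Tnfrsf14, Tnfrsf21, Tnfrsf11a and Tnfrsf12a among the lower and the 4-1BB ligand Tnfsf9 among the higher. Tnfrsf14 stood at 14.9 and 11.4 RPKM in the ZnF4 mutant, 20.3 and 17.6 in the ZnF1 mutant, against 19.3 and 14.3 in wt. Tnfrsf21 stood at 20 and 17.6 in the ZnF4 mutant, 29.3 and 23.5 in the ZnF1 mutant, against 23.6 and 17.8 in wt. For both genes each mutant overlapped wt. Tnfsf9 stood at 5.3 and 4.1 in the ZnF4 mutant, 3.7 and 2.8 in the ZnF1 mutant, against 4.3 and 3.8 in wt, a difference of 0.42 between the mutants (adjusted p = 0.34, or 0.024 with the block). Its receptor Tnfrsf9 (4-1BB) stayed at 0.2 to 0.7 RPKM. Tnfrsf4 (OX40), at 1.8 to 2.6 RPKM, and Tnfrsf19 (TROY), at 3 to 5.5 RPKM, had no call in any comparison with either fit.

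**Figure D4:**
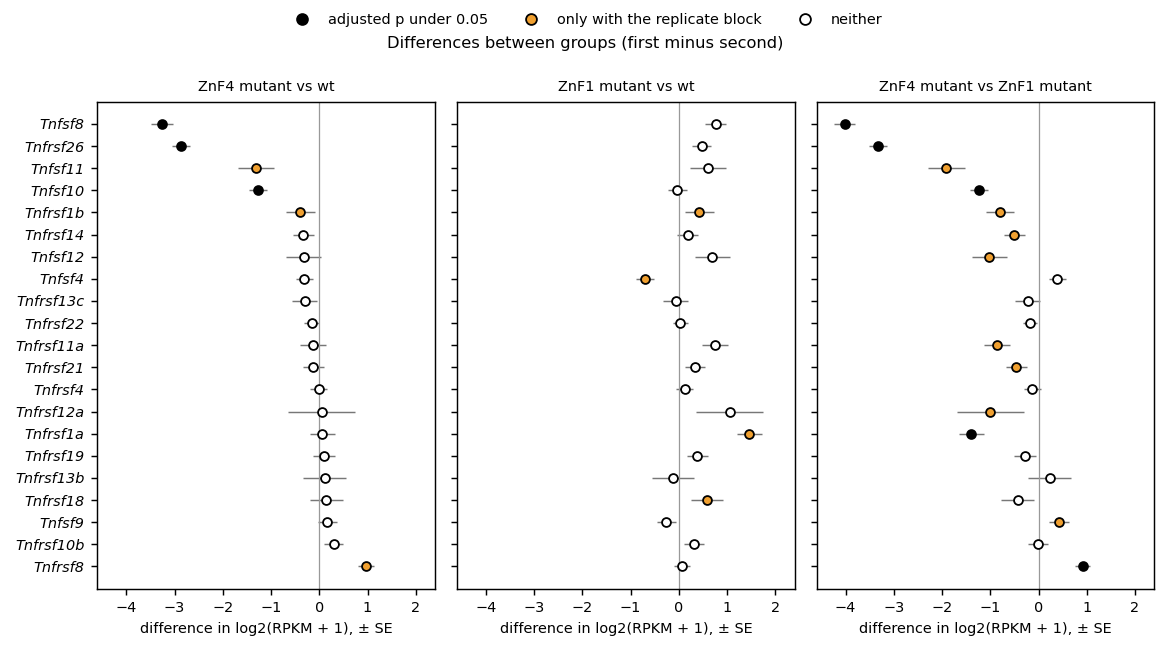
Differences in log2(RPKM + 1) with SE for the 21 members in the 3 comparisons (first group minus second), with black points for an adjusted p under 0.05, orange for calls made only with the replicate block and white for neither. Tnfsf8, Tnfrsf26 and Tnfsf10 are the black points in ZnF4 mutant against wt, and no point is black in ZnF1 mutant against wt.

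Of 15 family genes that carry other names 7 were tested. In the ZnF4 mutant against wt 1 of the 7 fell and none rose, or 4 lower with the replicate block (median −0.6, against 0.04 over all genes). Over all genes 2.72% were called without the block (1.3% lower) and 15.9% with it (7.92% lower). The called gene was Ltb, lymphotoxin beta, which with lymphotoxin alpha forms the membrane ligand of Ltbr. It stood at 14.5 and 8.1 RPKM in the ZnF4 mutant, 65.6 and 37 in the ZnF1 mutant, against 78.1 and 57.6 in wt, with a fall of −2.52 against wt (SE 0.39, limma adjusted p = 0.043). Its call ended when any 1 library was left out, with values of −2.9 to −2.14.

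Lta, lymphotoxin alpha, had the highest level of the members and these related genes. It stood at 47.1 and 30.1 RPKM in the ZnF4 mutant, 440.3 and 179.3 in the ZnF1 mutant, against 244 and 140.4 in wt. The ZnF4 libraries lay below the other 4. The difference from wt of −2.27 (SE 0.52) had a limma adjusted p of 0.123, or 0.002 with the replicate block, and also passed with quantile normalization. The fall of −2.87 against the ZnF1 mutant passed (adjusted p = 0.045) but not when any 1 library was left out (values −3.51 to −2.22). Tnf itself stood at 14.2 and 21.2 in the ZnF4 mutant, 34.4 and 46.5 in the ZnF1 mutant, against 25.7 and 26.3 in wt, a difference of −0.56 and 0.6 from wt in the ZnF4 and ZnF1 mutants (adjusted p = 0.528 and 0.48).

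Against wt, 0 of the 7 passed in the ZnF1 mutant, 2 had an unadjusted p under 0.05, and 2 were higher with the block, Ltbr and Eda2r, beside 10.4% of all genes higher (median 0.6, against −0.01 over all genes). Ltbr, the lymphotoxin beta receptor, stood at 2.1 and 1.1 RPKM in the ZnF4 mutant, 7.2 and 3.9 in the ZnF1 mutant, against 2.4 and 1.2 in wt. Between the mutants 3 of the 7 fell in the ZnF4 mutant: Lta, Ltb (by −2.08, limma adjusted p = 0.049) and the ectodysplasin receptor Eda2r (by −1.41, adjusted p = 0.015). With the block 7 were lower. Over all genes 5.37% were called without the block (3.75% lower) and 35.1% with it (19.2% lower). Eda2r was low, at 0.5 and 0.4 RPKM in the ZnF4 mutant, 2.7 and 3 in the ZnF1 mutant, against 1.3 and 1.1 in wt. It thus met the level only outside the ZnF4 mutant. Its difference between the mutants ran from −2.43 to −0.53 over the settings other than leaving out 1 library. The ligands Cd40lg, Fasl and Cd70 were listed at 0 in all libraries, and the receptors Cd40 and Cd27 were at 0.1 to 0.6 RPKM.

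Inside the cell, all 19 TRAF and death domain adaptor genes were tested. In the ZnF4 mutant against wt 1 fell and none rose, or 4 lower and 1 higher with the replicate block, beside the same 2.72% and 15.9% of all genes (median −0.2, against 0.04 over all genes). Traf5, an adaptor of several costimulatory receptors that include CD30, was the called gene. It stood at 2.3 and 2.2 RPKM in the ZnF4 mutant, 11.7 and 9.1 in the ZnF1 mutant, against 10 and 8.9 in wt, a fall of −1.68 (SE 0.18, limma adjusted p = 0.019). Its call against wt ended when any 1 library was left out (values −1.76 to −1.61).

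Among the adaptors added by the block were Birc3, a ubiquitin ligase bound to TRAF proteins, and Tnfaip3, the NF-kB inhibitor A20. Birc3 stood at 8.6 and 8.4 RPKM in the ZnF4 mutant, 16 and 16.6 in the ZnF1 mutant, against 15 and 17.2 in wt, a difference from wt of −0.85 (adjusted p = 0.063, or 0.0045 with the block). It fell against the ZnF1 mutant by −0.86 (adjusted p = 0.039). Tnfaip3 stood at 9.1 and 8.2 in the ZnF4 mutant, 19.4 and 13.3 in the ZnF1 mutant, against 20.5 and 18.8 in wt, a difference from wt of −1.1 (adjusted p = 0.082, or 0.0058 with the block). Between the mutants 3 of 19 fell in the ZnF4 mutant, Traf1 (by −1.1, adjusted p = 0.036), Traf5 (by −1.8, adjusted p = 0.014) and Birc3, or 8 with the block. Traf1 reached 1 RPKM only in the ZnF1 mutant (2 and 1.4, against 0.2 to 0.9 elsewhere), so it was tested only through the group where it was high and had to differ. All genes were called at 5.37% without the block (3.75% lower) and at 35.1% with it (19.2% lower). All 8 adaptors called with the block were lower. The calls of Traf1, Birc3 and Ltb between the mutants ended when any 1 library was left out, and those of Traf5 and Eda2r in 4 of 6 such fits. In the ZnF1 mutant against wt 0 of 19 passed, 1 had an unadjusted p under 0.05, and 2 were lower with the block, Traf4 and Birc2, beside 2.88% of all genes lower (median 0.09).

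The 16 NF-kB pathway genes had no call in any of the 3 comparisons with limma. At an unadjusted p under 0.05 there were 0 in the ZnF4 mutant against wt, 0 in the ZnF1 mutant against wt and 3 between the mutants. With the replicate block 1 was lower in the ZnF4 mutant against wt (the inhibitor Nfkbie, by −0.52, adjusted p = 0.011), 3 were higher in the ZnF1 mutant (Nfkb2, Nfkbia and Bcl3) and 6 were lower between the mutants. Over all genes the block called 7.92% lower in the ZnF4 mutant against wt, 10.4% higher in the ZnF1 mutant against wt and 19.2% lower between the mutants. The medians were −0.04 for the ZnF4 and 0.14 for the ZnF1 mutant against wt. The levels of the subunit genes differed, with Nfkb1 at 39.3 to 49.9 RPKM and Rela at 27.2 to 45.6. Rel was at 9.1 to 15.4, Nfkb2 at 6.5 to 13.2 and Relb at 1.7 to 3.8.

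**Figure D5:**
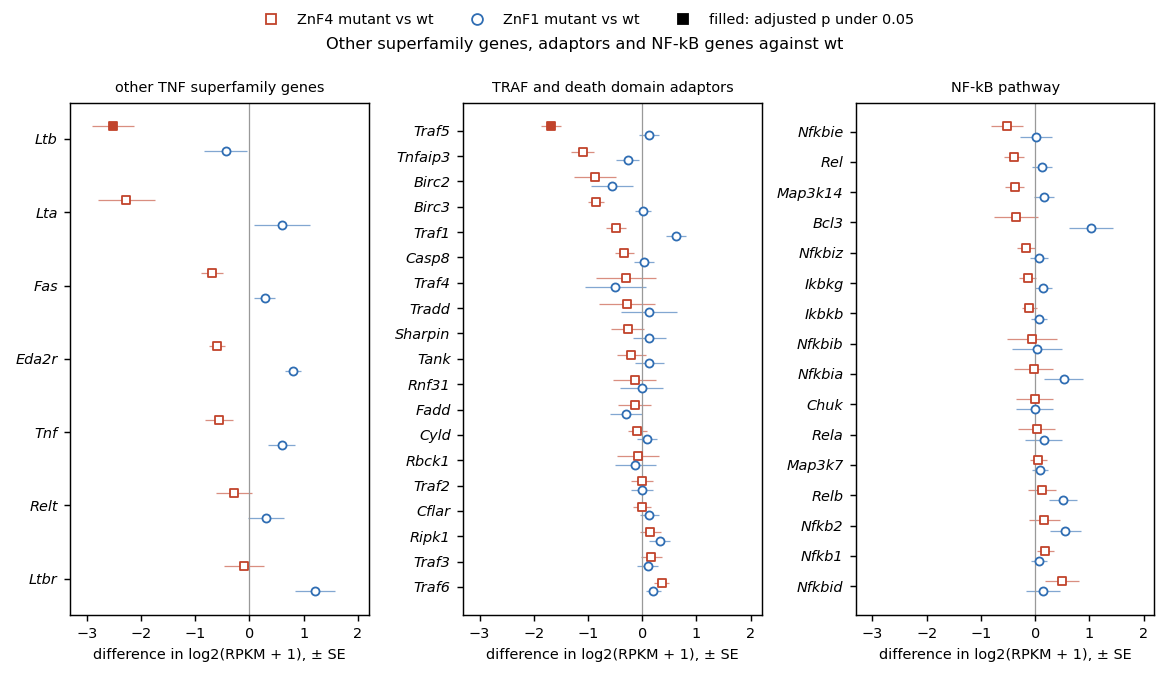
Differences from wt in log2(RPKM + 1) with SE for the tested genes of 3 lists, with red squares for the ZnF4 mutant, blue circles for the ZnF1 mutant and filled symbols for an adjusted p under 0.05. Ltb and Traf5 are the filled squares, and no NF-kB gene has a filled symbol.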

How the data were processed

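Polyadenylated RNA of 6 libraries was sequenced, 2 in each of 3 groups. Per the file headers, the authors deposited RPKM by RefSeq transcript, with 1 decimal, and each transcript’s length. TopHat, bedtools and mm9 are named, without versions, in the submitters' processing notes. The use of strand and the counting of shared reads are not given in the sources used here. Rounding hides the step of 1 read, so the depth is unknown and no counting interval is given. RPKM summed to 287007 to 345766 per library.

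The 26531 transcript rows were summed to 22099 symbols, 38 of 39 symbols that stood in the table as numbers were restored by accession, and 1 row without a gene was left out. The 11345 genes that reached 1 RPKM in 2 or more libraries entered limma 3.58.1 (R 4.3.3) as log2(RPKM + 1) with a mean-variance trend, all 6 libraries in 1 fit of 3 group means, two-sided, Benjamini-Hochberg adjusted over all genes tested, threshold 0.05. The fit was also run on simulated data in which all libraries varied independently. That run does not cover deviations shared by same-numbered libraries, which these data have. With 2 libraries per group, the p-values test differences of group means against the spread within groups. That spread is pooled over the 3 groups and moderated by limma toward the mean-variance trend.

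Same-numbered libraries deviated together: their deviations from group means correlated across genes at 0.754 (ZnF4 mutant and wt), 0.5 (ZnF1 mutant and wt) and 0.715 (ZnF4 and ZnF1 mutant). The fit with the replicate number from the titles as a block is given where it changed a call or moved a count by over 1.5 times. Members and gene lists were chosen with earlier results of these data known. All 21 members that met the level could be named, and from each list up to 6 called genes per comparison, largest change first, and chromosome neighbours. H19, Igf2, Nfkb1, Rela, Relb, Cd40 and Cd27 were named after their values were seen. Alternatives were other pseudocounts, filters, scalings, row handling and sets of libraries; libraries were left out with the genes tested held fixed. A single B lineage marker is not reported here and was left out of its sum.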

Additional observations from a re-analysis of the deposited data

How the results depend on the processing

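Counts are given in the order ZnF4 mutant against wt, ZnF1 mutant against wt, and ZnF4 against ZnF1 mutant. With the replicate block the calls were 1809, 1502 and 3979 over all genes, 6, 4 and 13 among the members, 4, 2 and 7 among the other family genes, 5, 2 and 8 among the adaptors and 1, 3 and 6 among the NF-kB genes. The remaining settings left ZnF1 mutant against wt at 0 in every list. Leaving out 1 library gave 0 to 88 and 0 to 262 calls over all genes for ZnF4 mutant against wt and against the ZnF1 mutant, and 0 to 2 members in each. The other family genes had 0 and 0 to 1, the adaptors 0 and 0 to 1, and the NF-kB genes 0. Leaving out wt replicate 1 and ZnF1 mutant replicate 2 together, the libraries with most granulocyte transcripts, gave 0 calls over all genes and in each list, with 1 residual degree of freedom, while Tnfsf8 and Tnfrsf26 stayed at −3.45 and −2.9 against wt. A fit of only the 4 libraries compared gave 86 and 234 calls over all genes, 2 members between the mutants, 0 and 1 other family genes and 0 and 1 adaptors. Fewer libraries leave fewer residual degrees of freedom, which by itself lowers counts.

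With at least 5 RPKM in 2 libraries 176 and 323 genes were called, 3 members and 0 other family genes between the mutants, with fewer genes tested. Without a filter on low values 0 and 1 other family genes were called. A pseudocount of 0.1 left 3 members between the mutants. Median ratio scaling gave 2 adaptors against wt, and quantile normalization 2 other family genes against wt and 1 adaptor between the mutants. The cause of these last shifts was not tested. Tnfsf8 and Tnfrsf26 kept their calls against wt and between the mutants under all 10 settings that kept all libraries of the groups compared. Tnfsf10 against wt missed the threshold without a filter (adjusted p = 0.0625), at 5 RPKM (0.0531) and with quantile normalization (0.0536), at −1.26 to −1.27. Directions reversed for Traf4 in the ZnF1 mutant against wt without wt replicate 1 (0.06) or without the granulocyte-rich pair (0.48), over −1.07 to 0.06 when 1 library was left out, and between the mutants for Birc2 without ZnF4 mutant replicate 1 (0.01, range −0.63 to 0.01) and Tradd without ZnF4 mutant replicate 2 or ZnF1 mutant replicate 1 (0.03 each, range −0.85 to 0.03). All other members and list genes kept their direction in the comparisons where the fit with or without the block called them. Directions were not followed for differences without a call, nor for the chromosome 7 neighbours Osbpl5, H19, Igf2 and Cars. The calls of Osbpl5, H19 and Igf2 were likewise not followed when a library was left out. The highest RefSeq row in place of the sum left the number of members at 21.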
